A study of Mus musculus with 12 samples.

Results

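The nuclear-encoded genes of oxidative phosphorylation were examined in mouse tongue. Rows were taken whose symbol began with Ndufa, Ndufb, Ndufc, Ndufs, Ndufv, Uqcr, Cox4 to Cox8 or Atp5, or was Sdha, Sdhb, Sdhc or Sdhd, and whose mean was at least 1 FPKM (fragments per kilobase of exon, scaled to the reads of the library) over the 12 libraries. Of 102 rows with such symbols, 96 reached that level, out of 32498 rows with a gene name. By the complex their products belong to, 37 were subunits of complex I, 4 of complex II, 8 of complex III, 15 of complex IV and 17 of complex V. The other rows were 8 assembly factors of complex I (Ndufaf genes) and 7 rows that are no subunit, such as Atp5if1, Cox7a2l and pseudogene copies. The lowest members were Ndufb2, at a deposited mean of 1.39 FPKM, and Cox4i2, at 1.66 FPKM, and the highest row left out was Cox6b2, at 0.496 FPKM.

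The mice were C57BL/6, were bought at 5 weeks of age, and drank 4-nitroquinoline 1-oxide (4NQO), a carcinogen that causes tongue tumours, at 100 µg/mL for 16 weeks. For 6 libraries the animals also received gallic acid (GA), a plant phenol, by oral gavage from week 4 (5 doses of 100 mg/kg each week), and for the other 6 they received vehicle. RNA came from tongue labelled as tumor and tumor-associated, so each library is a mixture of cell types. The files held FPKM per gene, and read totals recovered from them lay between 18039785 and 25190060 per library, with 18039785 to 21772918 in the vehicle group and 21234555 to 25190060 in the GA group.

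Oxidative phosphorylation takes place in the inner mitochondrial membrane. Complex I (NADH dehydrogenase) and complex II (succinate dehydrogenase) pass electrons to ubiquinone, complex III passes them on to cytochrome c, complex IV (cytochrome c oxidase) reduces oxygen, and complex V (ATP synthase) makes ATP from the proton gradient built by complexes I, III and IV. Striated muscle, of which the tongue is largely made, is rich in mitochondria and uses its own isoforms of several complex IV subunits: Cox6a2, Cox7a1 and Cox8b in heart and skeletal muscle, in place of the widely expressed Cox6a1, Cox7a2 and Cox8a.

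The sequence before the start of these isoform genes is shown because the ratio of muscle to common isoform varied across the libraries in each pair. Each line gives the 250 bases upstream of the first listed RefSeq start on build GRCm38.p6, on the gene's own strand, with a match to a searched motif in capitals. Cox6a1 lies on the minus strand (chr5:115348959-115349208), Cox7a1 on the plus strand (chr7:30183921-30184170), Cox7a2 on the minus strand (chr9:79759854-79760103), Cox8b on the minus strand (chr7:140900447-140900696) and Cox8a on the minus strand (chr19:7217617-7217866). Cox6a2 is named only.
Cox7a1: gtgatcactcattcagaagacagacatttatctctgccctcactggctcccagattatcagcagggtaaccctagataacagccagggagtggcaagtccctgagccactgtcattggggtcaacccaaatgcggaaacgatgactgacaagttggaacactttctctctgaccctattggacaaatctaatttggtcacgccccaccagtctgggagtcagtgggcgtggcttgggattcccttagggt
Cox8b: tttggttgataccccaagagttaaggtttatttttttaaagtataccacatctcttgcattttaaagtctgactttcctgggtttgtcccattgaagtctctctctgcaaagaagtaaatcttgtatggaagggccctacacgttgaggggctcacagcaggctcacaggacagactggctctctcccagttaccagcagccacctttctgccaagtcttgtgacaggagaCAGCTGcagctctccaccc
Cox6a1: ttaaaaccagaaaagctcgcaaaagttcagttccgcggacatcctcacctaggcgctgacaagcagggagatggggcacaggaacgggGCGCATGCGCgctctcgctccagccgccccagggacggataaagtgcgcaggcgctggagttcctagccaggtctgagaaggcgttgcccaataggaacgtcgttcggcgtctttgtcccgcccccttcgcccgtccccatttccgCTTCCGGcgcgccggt
Cox7a2: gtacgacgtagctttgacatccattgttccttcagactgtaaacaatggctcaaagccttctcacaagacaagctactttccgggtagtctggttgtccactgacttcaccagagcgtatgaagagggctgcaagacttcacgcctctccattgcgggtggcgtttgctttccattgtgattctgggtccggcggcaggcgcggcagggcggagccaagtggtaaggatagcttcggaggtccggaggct
Cox8a: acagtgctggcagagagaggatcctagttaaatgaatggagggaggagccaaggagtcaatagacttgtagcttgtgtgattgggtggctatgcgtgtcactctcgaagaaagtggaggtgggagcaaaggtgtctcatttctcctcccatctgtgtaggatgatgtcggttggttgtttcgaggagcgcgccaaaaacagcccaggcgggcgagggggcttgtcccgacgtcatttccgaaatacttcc
The capitals mark overlapping matches to GCGCATGC, letters bound by NRF1, and a match to CCGGAAG, bound by ETS factors such as GABP, both before Cox6a1, and a CAGCTG E-box before Cox8b. GC content was 51.2% before Cox7a1 and 47.2% before Cox8b, against 62.8%, 54.8% and 52.8% before Cox6a1, Cox7a2 and Cox8a. Both strands were searched. GCGCATGC was found before 8 of the 65 subunit genes with a listed promoter (12.3%) and in 2.32% of 27025 promoters of the same length. CCGGAAG stood before 11 of the 65 (16.9%) and in 7.05% of all promoters. CAGCTG stood before 6 of the 65 (9.23%) and in 12.8% of all promoters. TCAAGGTCA, bound by oestrogen-related receptors, stood before 1 of the 65, Atp5mc3 (1.54%), and in 0.366% of all promoters. AAGATGGC, bound by YY1, and CTAAAAATA, a form of the MEF2 site, stood before none of the 65, and in 1.59% and 0.451% of all promoters.

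Levels differed widely among the members. On the FPKM scale after scaling between libraries, the catalytic ATP synthase subunits were highest, with means over all libraries of 426 FPKM for Atp5f1b (beta subunit) and 401 FPKM for Atp5f1a (alpha subunit). In complex IV the highest members were the muscle isoforms Cox6a2 (299 FPKM) and Cox8b (251 FPKM). Complex III was led by the Rieske iron-sulphur protein gene Uqcrfs1 (184 FPKM) and by Uqcr11 (156 FPKM), and complex II by Sdha (104 FPKM), the flavoprotein, and Sdhd (97.0 FPKM), a membrane anchor. In complex I, the accessory subunit Ndufa1 had a mean of 139 FPKM. The medians over members were 52.5 FPKM in complex I, 82.6 in complex II, 111 in complex III, 130 in complex IV and 66.5 in complex V. Assembly factors of complex I were lower, with a median of 6.24 FPKM. The low level of Ndufb2, 1.38 FPKM after scaling, was measured over a merged exon length of 5628 bases.

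Most members were higher in the GA group than with vehicle, but none passed the test. The call required an adjusted p below 0.1 (limma, Benjamini-Hochberg over 16852 genes) and a log2 fold change of at least 0.58 in size. On that rule 0 of the 96 members were called, as were 0 of all 16852 genes (0.0%), and the smallest adjusted p among members was 0.9985. With an unadjusted limma p below 0.05, 1 member was higher and 0 were lower, against 0.902% and 1.28% of all genes. Without vehicle 3, 11 members were higher at that p, against 2.68% of all genes, and without GA 6 it was 16, against 2.06%. When any other single library was left out, 0 members passed that p. By mean log2 level of the members, vehicle 3 was the highest vehicle library and GA 6 the lowest GA library. Leaving out either therefore widens the group difference by construction. The GA mean was above the vehicle mean for 91 of the 96 members, against 46.4% of all genes. These 91 share the same 12 libraries and are not independent of each other. The median log2 fold change on the log2(FPKM + 0.1) scale was 0.22 over the members and -0.02 over all genes tested. GA means exceeded vehicle means for 37 of 37 genes in complex I (median 0.23), 4 of 4 in complex II (median 0.31), 8 of 8 in complex III (median 0.22), 13 of 15 in complex IV (median 0.23) and 17 of 17 in complex V (median 0.22). Among the assembly factors it was 6 of 8, with a median of 0.07.

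The spread between libraries of one group exceeded these differences in every complex. A complex's score is the mean of log2(FPKM + 0.1) over its members in a library. For complex I the score was 5.28 ± 0.42 (SD, n = 6) with vehicle and 5.51 ± 0.37 (n = 6) with GA. For complex II it was 6.02 ± 0.67 and 6.32 ± 0.50, and for complex III 6.73 ± 0.41 and 6.96 ± 0.35. Complex IV stood at 6.51 ± 0.50 and 6.79 ± 0.45, and complex V at 6.08 ± 0.42 and 6.31 ± 0.35. In each complex 5 of the 6 GA libraries lay above the vehicle median, the groups overlapped, the GA 6 library was low and the vehicle 3 library was the highest of all 12. Over all 81 subunits, the score lay between 5.34 and 5.55 in 4 libraries (vehicle 1, 4 and 5 and GA 6) and between 6.00 and 6.56 in the other 8.

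**Figure D1:**
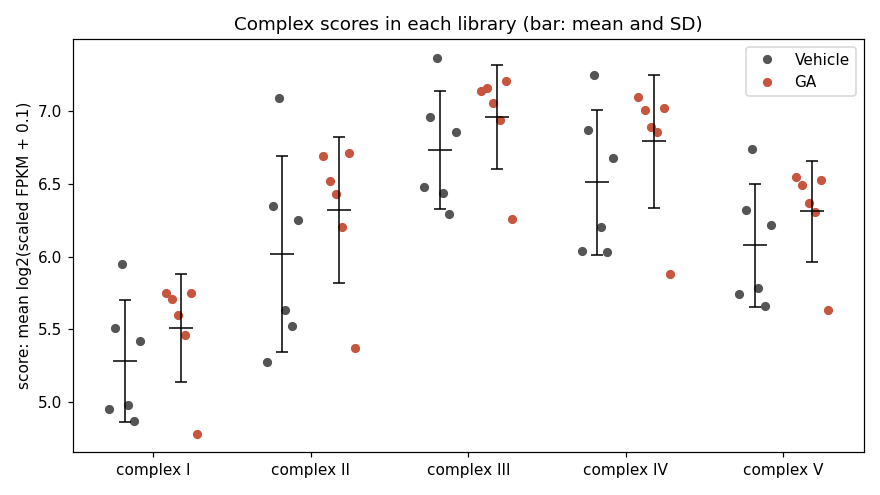
Score of complexes I to V (mean log2 of scaled FPKM + 0.1 over the members) in each library, with points for the 6 vehicle and 6 GA libraries and bars for mean and SD. The groups overlap in every complex, and 5 of 6 GA libraries lie above the vehicle median.

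Vehicle and GA values overlapped in the named subunits of the electron entry points. Ndufs1, the iron-sulphur subunit of complex I, ranged from 13.6 to 42.1 FPKM with a median of 21.9 FPKM in the vehicle group, and from 14.9 to 35.8 FPKM with a median of 28.9 FPKM in the GA group. Its log2 fold change was 0.31 ± 0.29 (SE), with an exact permutation p of 0.366 (two-sided, all 924 arrangements, smallest possible p 0.00216). Ndufv1, which binds NADH, ranged from 51.3 to 138 FPKM (median 78.7 FPKM) with vehicle and from 53.0 to 133 FPKM (median 108 FPKM) with GA. The groups overlapped for both genes. The log2 fold change of Ndufv1 was 0.36 ± 0.28, with an exact permutation p of 0.271. Ndufa5, an accessory subunit, had the largest difference in complex I, 0.43 ± 0.27, from vehicle values of 36.6 to 86.7 FPKM (median 53.6 FPKM) to GA values of 36.7 to 87.7 FPKM (median 81.7 FPKM). Its exact permutation p was 0.143. Sdha, which oxidises succinate, ranged from 47.5 to 187 FPKM (median 84.7 FPKM) with vehicle and from 54.9 to 144 FPKM (median 119 FPKM) with GA. The widest vehicle values came from vehicle 1 and vehicle 3. Its log2 fold change was 0.35 ± 0.34 (exact permutation p = 0.372), and that of Sdhb, the iron-sulphur subunit, was 0.31 ± 0.37 (exact permutation p = 0.457).

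In complexes III to V the groups overlapped as well. Uqcrfs1 ranged from 94.3 to 296 FPKM (median 150 FPKM) with vehicle and from 98.5 to 258 FPKM (median 220 FPKM) with GA. Its log2 fold change was 0.34 ± 0.30, with an exact permutation p of 0.329. Uqcrc1, a core protein of complex III, differed by 0.17 ± 0.20 (exact permutation p = 0.433). Cox4i1, the common form of the regulatory subunit 4, differed by 0.17 ± 0.22 (exact permutation p = 0.452) and Cox5a by 0.23 ± 0.26 (exact permutation p = 0.429). Cox4i2, the form of subunit 4 best known from lung, was near the lower limit of the rule, at 0.51 to 3.08 FPKM with vehicle and 0.645 to 3.47 FPKM with GA (log2 fold change 0.57 ± 0.43, exact permutation p = 0.238). In ATP synthase, Atp5f1a differed by 0.27 ± 0.26 (exact permutation p = 0.355) and Atp5f1b by 0.21 ± 0.25 (exact permutation p = 0.409). The 3 genes for the same c-ring protein of ATP synthase had differences of 0.44 ± 0.30 for Atp5mc1, 0.14 ± 0.14 for Atp5mc2 and 0.28 ± 0.24 for Atp5mc3, with exact permutation p values of 0.219, 0.355 and 0.292.

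The member with the smallest p was a pseudogene row, Ndufa12-ps. It ranged from 19.3 to 36 FPKM (median 23.5 FPKM) with vehicle and from 20.5 to 39.2 FPKM (median 33.7 FPKM) with GA. The log2 fold change was 0.41 ± 0.18, with an unadjusted limma p of 0.0414, an adjusted limma p of 0.9985 and an exact permutation p of 0.0649. Of the 50-base windows of its transcript, 78.8% also occurred in 1 other gene, so its reads may belong to that gene. Members below vehicle were Cox6a1 (-0.07), Cox8a (-0.05), Ndufaf3 (-0.10), Ndufaf7 (-0.01) and Atp5if1 (-0.02), none past the test. Ndufaf7 and Atp5if1 moved above 0 without scaling or with upper quartile scaling, and Cox6a1 (0.02), Cox8a (0.01) and Atp5if1 (0.06) did so without vehicle 1. Other members with small p were Ndufs6b, also listed as a processed pseudogene (0.44 ± 0.25, exact permutation p = 0.134), Atp5pd (0.34 ± 0.19, exact permutation p = 0.121) and Ndufa11, an accessory subunit of complex I (0.28 ± 0.18, exact permutation p = 0.173).

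The muscle isoforms of complex IV varied most among the subunits. Cox6a2 stood at 54.9, 333, 631, 138, 132 and 264 FPKM in vehicle 1 to 6 and at 459, 429, 333, 272, 442 and 101 FPKM in GA 1 to 6. Its highest library held 11.5 times as much as its lowest, while Cox6a1 varied 1.73-fold, from 186 to 322 FPKM. Cox7a1 ranged from 30.9 to 223 FPKM with vehicle and from 36.1 to 205 FPKM with GA, and Cox8b from 63.5 to 442 FPKM and from 87.7 to 384 FPKM. For all 3 muscle isoforms the lowest library was vehicle 1 and the highest was vehicle 3. Their log2 fold changes were 0.64 ± 0.55 (Cox6a2), 0.66 ± 0.54 (Cox7a1) and 0.65 ± 0.50 (Cox8b), with exact permutation p values of 0.323, 0.344 and 0.264. These 3 were the only members past a log2 fold change of 0.58, which 4.07% of all genes exceeded upwards. Without vehicle 1 they fell to 0.27 (Cox6a2), 0.39 (Cox7a1) and 0.37 (Cox8b), and 0 members were past 0.58 when vehicle 1, 4 or 5 or GA 1 was left out. Against them, the common isoforms stood at 0.20 ± 0.17 for Cox7a2, -0.07 ± 0.14 for Cox6a1 and -0.05 ± 0.11 for Cox8a.

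Within a library, the ratio of muscle to common isoform removes the scaling between libraries. The Cox6a2/Cox6a1 ratio lay between 0.17 (vehicle 1) and 3.31 (vehicle 3), Cox7a1/Cox7a2 between 0.326 and 1.72, and Cox8b/Cox8a between 0.254 and 2.21. Each ratio was above 1 in the same number of libraries, 8 of 12. The log2 ratio was higher with GA by 0.71 for Cox6a2/Cox6a1, 0.45 for Cox7a1/Cox7a2 and 0.70 for Cox8b/Cox8a, with 5 of 6 GA libraries above the vehicle median each time. The exact permutation p values were 0.32, 0.387 and 0.249, each 0.387 after Benjamini-Hochberg adjustment over the 3 ratios, and no ratio passed the test.

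**Figure D2:**
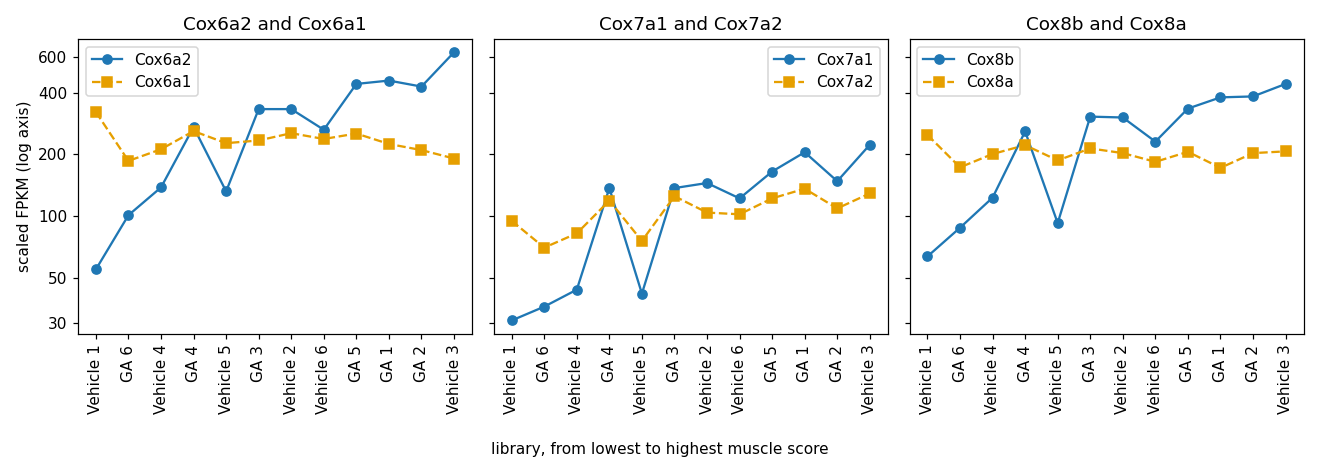
Scaled FPKM (log axis) of each muscle isoform and its common counterpart in the 12 libraries, ordered from the lowest to the highest muscle score. Cox6a2, Cox7a1 and Cox8b rise several-fold along the axis while Cox6a1 and Cox8a stay within 186 to 322 and 172 to 249 FPKM. Cox7a2, at 70.1 to 136 FPKM, also rises with the muscle score (Pearson's r 0.63).

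The members' levels followed muscle genes. A muscle score was formed from 20 genes of contraction and muscle energy use, Acta1 (skeletal actin) and Ckm (muscle creatine kinase) among them. It ran from 4.72 (vehicle 1) to 7.91 (vehicle 3) on the log2 scale, with medians of 6.27 with vehicle and 6.52 with GA. Of its 19 tested genes, 15 were higher and 4 lower with GA, 0 at an unadjusted limma p below 0.05. Their median log2 fold change was 0.47, against 0.22 over the members. As a description over the 12 libraries, which share their depth and tissue with the score, Pearson's r with it was 0.85 (Spearman's rho 0.87) for complex I, 0.90 (0.92) for complex II, 0.82 (0.85) for complex III, 0.84 (0.87) for complex IV and 0.85 (0.87) for complex V. For all 81 subunits it was 0.85, with 0.87 within the vehicle group, 0.85 within the GA group, and 0.83 without vehicle 1 and vehicle 3, the libraries farthest from the median. Among the 8 libraries with subunit scores of at least 5.8 it was 0.81. In the 4 libraries below that, the muscle score ran from 4.72 to 6.08, but the subunit score only from 5.34 to 5.55. Vehicle 5 and GA 4 had muscle scores of 6.08 and 6.07, and subunit scores of 5.42 and 6.08. Over the 12 libraries, Acta1 alone gave an r of 0.84 and Ckm alone 0.96. A step of 1 in the muscle score went with 0.41 in the subunit score, and with 1.14, 1.03 and 0.99 for Cox6a2, Cox7a1 and Cox8b.

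**Figure D3:**
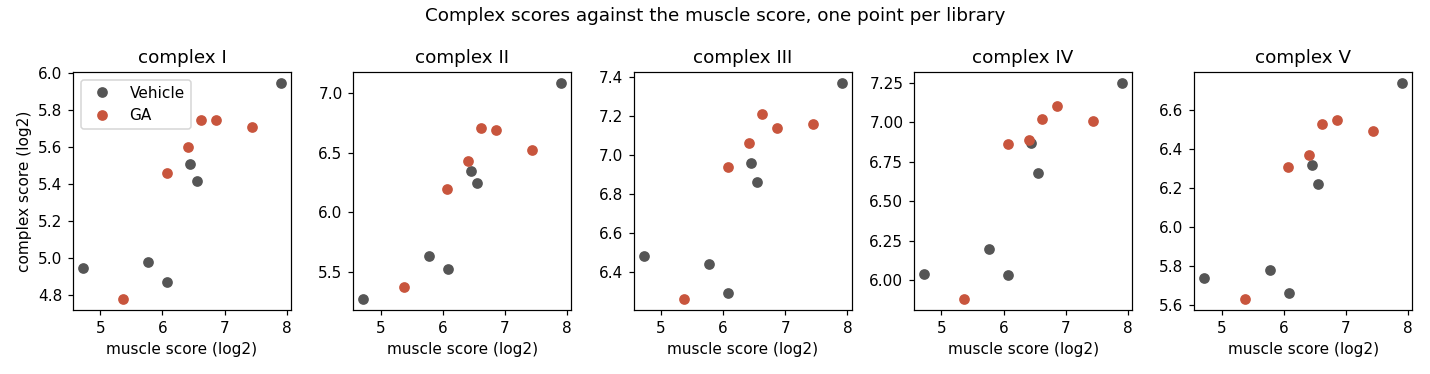
Score of each complex against the muscle score, both in log2 units, with one point for each of the 6 vehicle and 6 GA libraries. All 5 scores climb with the muscle score, with r from 0.82 to 0.90.

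Single members differed in how closely they followed muscle. The median r was 0.83 over the 81 subunits and -0.10 over all genes tested, and 78 of the 81 had r above 0.5, as did 21% of all genes. Ndufaf1, an assembly factor of complex I, had the highest r, 0.95, ahead of Cox6a2 (0.93) and Ndufa13 (0.93). The lowest were Atp5if1 (-0.72), the inhibitor of ATP synthase, Cox6a1 (-0.49) and Cox8a (-0.24). Without vehicle 1 and vehicle 3 the r turned to 0.30 for Cox6a1 and 0.15 for Cox8a, and within the GA group it was 0.23 and 0.20, while that of Atp5if1 was -0.41 without those libraries and -0.45 within the GA group. Atp5if1 stood at 27.5 to 41.3 FPKM with vehicle and 26.7 to 37.0 FPKM with GA.

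**Figure D4:**
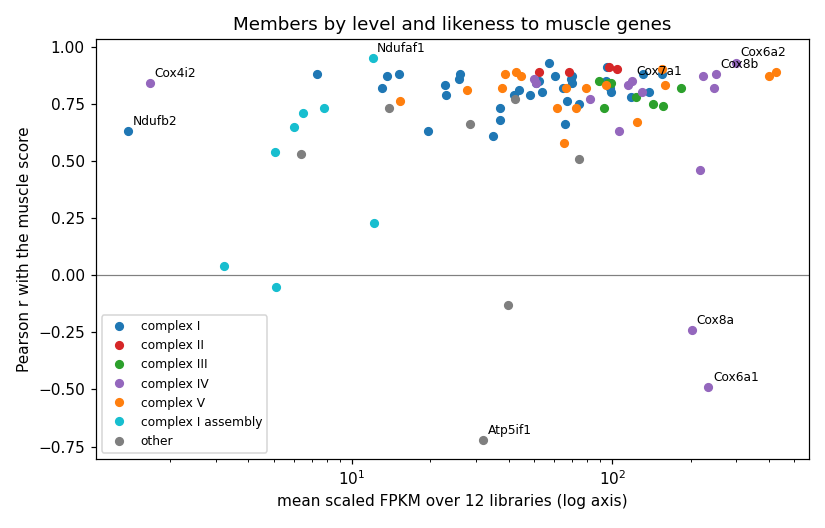
Pearson's r with the muscle score against mean scaled FPKM (log axis) for the 96 members, coloured by complex. Most members lie above 0.5, and Cox6a1, Cox8a and Atp5if1 lie below 0 at 234, 202 and 31.9 FPKM, of which Cox6a1 and Cox8a turn above 0 without vehicle 1 and vehicle 3.

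With the muscle score as a term in the limma fit, the median log2 fold change fell to 0.14 in complex I, 0.18 in complex II, 0.14 in complex III, 0.16 in complex IV and 0.16 in complex V. The size of the difference was smaller for 94 of 96 members, and 89 of the 91 members above 0 stayed there, while Ndufb2 and Ndufc1 moved to -0.01 and Atp5if1 moved from -0.02 to 0.02. With this term 3 members were higher at an unadjusted limma p below 0.05, against 1.92% of all genes. They were Atp5pd, a stalk subunit of ATP synthase, with a log2 fold change of 0.26, Atp5mc1 with 0.32 and Ndufa12-ps with 0.35. None had an adjusted p below 0.1. The muscle isoforms fell to 0.40 (Cox6a2), 0.44 (Cox7a1) and 0.45 (Cox8b). The term holds this score equal, which need not hold muscle content equal. The 19 tested muscle genes themselves kept a median log2 fold change of 0.25 with the term, against 0.47 without it. Group means of the muscle score differed by 0.22, and those of log2 Ckm by 0.56. Their r with the subunit score was 0.85 and 0.96. In bulk tissue fewer muscle cells and less RNA per cell cannot be told apart.

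**Figure D5:**
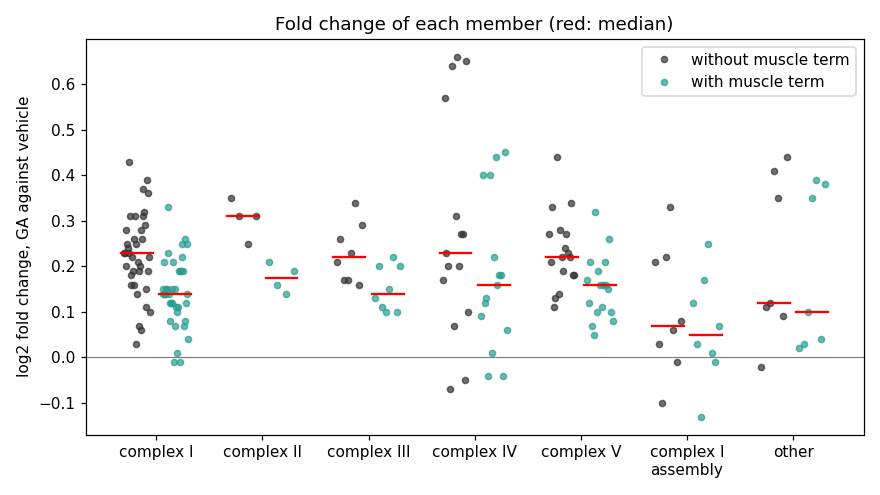
Log2 fold change (GA against vehicle) of every member, by complex, without and with the muscle score as a term, with medians in red. Medians of the complexes fall from 0.22 to 0.31 without the term to 0.14 to 0.18 with it.

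Other features of the libraries moved with the subunit score. The epithelial marker score (11 genes such as Krt5) ran against it, with r = -0.88 and ranges of 9.26 to 10.18 with vehicle and 9.12 to 10.32 with GA, and all 11 tested epithelial genes were lower with GA (0 at an unadjusted limma p below 0.05). The neutrophil score had r = -0.37, with -0.52 within vehicle and 0.13 within GA. It ranged from 0.03 to 4.22 with vehicle and from -0.18 to 2.65 with GA. All 11 tested neutrophil genes were lower with GA (median -0.78), as were all 11 tested gland genes (median -1.46), 0 of them at an unadjusted limma p below 0.05. The median over members was 0.14 with the neutrophil score as a term. The gland score had r = 0.15, the fat score 0.38 and the red blood cell score 0.57. Without the 2 libraries farthest from each score's median, r was 0.28 for neutrophil, 0.47 for gland, -0.23 for fat and 0.54 for red blood cell. The log2 read total had r = -0.05, with -0.02 within vehicle, -0.74 within GA and 0.45 without its 2 farthest libraries. Lipf, a marker of tongue gland, was above 1000 FPKM in 3 libraries (vehicle 3 and 5 and GA 2) and without them 89 of 96 members were above vehicle. Brown fat was not visible, with Ucp1 at 0.173 FPKM or less. Y-linked reads were present in 4 vehicle and 1 GA libraries, and with them as a term the median over members was 0.34. The part of these features in the members' difference was not tested.

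Genes around the complexes are read against the 46.4% of all genes that were higher with GA. Of the 13 mitochondrially encoded mRNAs, 13 were higher with GA (median 0.49, 0 at an unadjusted limma p below 0.05), and of the 17 citrate cycle genes, 17 (median 0.30, 0 at that p). Cyc1 and Cycs, the cytochromes c1 and c, both were higher (0.26 and 0.27). Cyc1 is itself a subunit of complex III, left out of the members only because its symbol does not match the rule. Of 39 tested assembly factors of the complexes, 35 were higher (median 0.14) and 1, Nubpl, an iron-sulphur carrier for complex I, had p below 0.05: 0.939 ± 0.149 FPKM with vehicle and 1.19 ± 0.145 FPKM with GA (SD, n = 6 each), with an exact permutation p of 0.00433 and an adjusted limma p of 0.9985. Over the 12 libraries, r with the subunit score was 0.95 for the mitochondrial mRNAs and 0.98 for the citrate cycle genes. It was 0.99 for the cytochromes and 0.99 for the assembly factors, so these lists are not independent of the subunits. With the muscle term their medians were 0.37, 0.20, 0.16 and 0.09. Of 12 regulators, 6 were higher and 6 lower. Ppargc1a, a coactivator of mitochondrial biogenesis, stood at 3.29 ± 2.12 FPKM with vehicle and 5.50 ± 2.66 FPKM with GA (log2 fold change 0.81, exact permutation p = 0.117). Its r with the muscle score was 0.88, and its log2 fold change with the muscle term was 0.62. Genes for subunits of GABP lay the other way, at -0.10 for Gabpa (exact permutation p = 0.0628) and -0.21 for Gabpb1 (exact permutation p = 0.132).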

How the data were processed

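RNA-seq of 12 tongue libraries (6 vehicle, 6 GA) was analysed. Deposited values are FPKM. Per the study's methods, HISAT2 placed the reads on mm10 and featureCounts assigned unique alignments to genes. Strand settings are not given in the sources used here. Of 55463 rows, the 22965 that carry no symbol (41.4%) were not used. Within 0.02 reads, 97.1% to 97.9% of low values were whole reads, which gave the read totals. FPKM were divided by TMM factors, and the 16852 genes averaging 0.1 FPKM or more were fitted on log2(FPKM + 0.1) with limma 3.58.1 (trend). Alternatives were other pseudocounts, filters and scalings, added terms, a replicate block, limma-voom on recovered reads and leaving out libraries. GENCODE M21 gave exon lengths and biotypes, and 92 of 96 members matched. Ndufb4c and Ndufs6b, which M21 lists as processed pseudogenes, were placed outside the complexes. Biotype did not decide every row. Ndufb1, matched to a non-coding M21 entry (Ndufb1-ps), stayed in complex I, and Cox5b-ps, which M21 lists as protein coding, was placed outside. RefSeq promoters matched 73 members. The fit was tested on simulated data. Members and lists were chosen with earlier results of these data known. The named members were those with the highest level in each complex, fixed core subunits and isoform pairs, and the extremes of p, fold change and r. The labels do not say that libraries came from separate mice, and p-values then measure only the spread between libraries. A named member is not reported here.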

Additional observations from a re-analysis of the deposited data

Results flagged for a closer look

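A library stood far from the other 5 of its group in 22 of 82 groups of values tested by Dixon's ratio (26.8%). Chance flags about 1 in 20 independent groups, but these genes and scores share the same 12 libraries and are not independent. GA 6 was the low value in 21 of them.
The ratio, gap to the nearest library over the range of the group, was 0.701 for complex I score, 0.716 for complex III score, 0.8 for complex IV score, 0.744 for complex V score, 0.733 for complexes I to V score, 0.655 for complex I assembly score, each with GA 6 lowest. Among single members with GA 6 lowest it was 0.63 for Atp5mc3, 0.75 for Atp5pd, 0.736 for Cox4i1, 0.629 for Cox5a, 0.654 for Cox6a2, 0.65 for Cox6b1, 0.768 for Cox7a1, 0.665 for Cox7a2, 0.734 for Cox8b, 0.794 for Ndufa1, 0.744 for Ndufa5, 0.707 for Ndufv1, 0.67 for Sdhb, 0.858 for Uqcr11, 0.634 for Uqcrfs1. In the vehicle group it was 0.629 for Ndufa12-ps, where vehicle 3 was highest. The cause was not tested.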

How the results depend on the processing

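Each median of complexes I to V moved by less than the spread between libraries under every alternative run. That spread is wider than the medians themselves, so this is a weak limit. For complex II the median was 0.31 as reported and 0.47 with Y-linked reads as a term. No member was called under any alternative. The number of members with an unadjusted p below 0.05 (1 as reported) was 3 with the muscle term. It was 0 with the neutrophil term and 0 with limma-voom on recovered reads. It was 11 without vehicle 3 and 16 without GA 6, all higher, where 2.68% and 2.06% of all genes were. It was 0 when any other single library was left out. Vehicle 3 had the highest subunit score of its group and GA 6 the lowest of its own, so leaving out either widens the difference by construction. The median over members (0.22) was 0.35 without vehicle 3 and 0.36 without GA 6, but 0.14 without vehicle 5 and 0.16 without vehicle 1, where that of complex II was 0.15. The r of the subunit score with Ckm alone was 0.96. With the replicate number as a block, 1 member passed that p; numbers did not pair the libraries (correlations of deviations from -0.371 to 0.079). The cause of these changes was not tested. The restriction of the r to 8 libraries was chosen after seeing the data.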
